A study of Mus musculus with 12 samples.

Results

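The genes of glycolysis, lactate handling and glycogen metabolism were followed in bone marrow-derived macrophages (BMDMs) before and after LPS/IFNγ. The set was a list of 33 genes chosen by function, with earlier results of these data known. It covered hexose transport, the steps from glucose to pyruvate, the enzymes that set fructose 2,6-bisphosphate, lactate production and export, and glycogen synthesis and breakdown. For each gene the probe set that names that gene alone and has the highest mean log2 signal over all 12 arrays was used. Of the 33 genes, 29 were measured in this way among 18193 genes in all. Gapdh was carried only by control probe sets and by probe sets shared with pseudogenes, so it was left out of the tests, except for a setting added later, and Gpi1, Pfkfb1 and Eno1 had no probe set named for them and were not analysed here.

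There were 4 groups of 3 arrays each. WT BMDMs came from C57BL6 mice, and Nos2-/- BMDMs came from mice with a targeted germline allele of Nos2, the inducible NO synthase, given in the methods as strain B6.129P2-Nos2tm1Lau/J. Mice were 6 to 10 weeks old per the methods. All cells were grown from bone marrow in 20 ng/mL M-CSF and were then left untreated, which the methods give as vehicle and the labels as before stimulation, or stimulated with 100 ng/mL LPS and 50 ng/mL IFNγ for 8 h. The allele is present in every cell from the germline on, so the loss of Nos2 during differentiation and its loss during stimulation cannot be told apart. The labels call the replicates biological but do not say whether they came from separate mice, so p-values measure the spread between these arrays.

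Glycolysis splits glucose into pyruvate in the cytosol with a small yield of ATP. Glucose enters through GLUT transporters and is trapped by hexokinases, and phosphofructokinase commits it to the pathway under the control of fructose 2,6-bisphosphate, which the PFKFB enzymes make and remove. In macrophages given LPS and IFNγ, glucose use and lactate release are known to rise, with pyruvate reduced by lactate dehydrogenase and lactate carried out of the cell by monocarboxylate transporters. Glucose 6-phosphate can also be stored as glycogen, through phosphoglucomutase, UDP-glucose pyrophosphorylase, glycogen synthase and the branching enzyme, and be recovered by glycogen phosphorylase.

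Arrays of the same group correlated at r of 0.9965 or more over all genes, and no array stood apart. The log2 signal of the probe set for Nos2 ran from 5.40 to 5.65 in WT untreated cells and from 9.64 to 9.81 after stimulation, against 5.15 to 5.41 and 7.45 to 7.88 in Nos2-/- cells, and whether its probes lie inside the deleted part was not determined. All 8 macrophage markers were above the median signal of all genes, and their mean log2 signal lay between 12.32 and 12.43 on every array, although 2 of them rose and 5 fell after stimulation in each genotype. Of the 6 neutrophil markers measured, 4 were above that median, and 3 rose after stimulation in each genotype. The mean log2 signal of those 6 ran from 6.48 to 6.75 untreated and from 6.88 to 7.02 stimulated in WT, and from 6.48 to 6.85 and from 6.87 to 7.08 in Nos2-/-. Among the markers of other cells, only Cd3e, Cd4, Pax5 and Epor were above the median of all genes in any group. Of these other markers, 2 of 4 fibroblast markers rose in each genotype (mean log2 signal of the list 4.24 to 4.31 untreated and 4.58 to 4.63 stimulated in WT), and 3 of 4 dendritic cell markers rose in WT and 1 in Nos2-/-. In WT 2 of 6 T and NK cell, 1 of 3 B cell and 1 of 4 mast cell and basophil markers rose. In Nos2-/- 2 of 4 mast cell and basophil and 1 of 3 erythroid markers rose. The part of these markers in the responses described here was not tested. In bulk RNA a smaller share of cells and less RNA per cell cannot be told apart.

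After LPS/IFNγ most of the measured genes of the set moved, but not all in the same direction. Isozymes did not move together among the hexose transporters, phosphofructokinases, aldolases and PFKFB enzymes, while all 3 hexokinases rose. Among the 29 genes, 18 were raised in WT cells, 5 were lowered and 6 did not pass the test, where a gene counted as changed when its Benjamini-Hochberg adjusted p from limma was under 0.05. Over all genes tested, 29.6% rose and 28.4% fell. In Nos2-/- cells 17 of the 29 rose, 8 fell and 4 did not pass, against 26.3% higher and 28.2% lower over all genes. Untreated and stimulated arrays did not overlap for 25 of the 29 in WT and 26 in Nos2-/-, where this held for 65.1% and 60.5% of all genes. The median log2 fold change of the 29 was 0.60 in WT and 0.43 in Nos2-/-, where that of all genes was 0.07 and 0.05. Individual changes ran from -3.11 for Slc2a3 to 5.76 for Pfkfb3 in WT and from -3.44 to 5.91 for the same genes in Nos2-/-.

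The 17 genes that rose in both genotypes were Slc2a1, Slc2a6, Hk1, Hk2, Hk3, Pfkl, Pfkp, Tpi1, Pfkfb3, Pgk1, Pgam1, Eno2, Ldha, Slc16a1, Slc16a3, Gys1 and Ugp2. The 5 that fell in both were Slc2a3, Aldoc, Pfkfb2, Pfkfb4 and Pgm2. Aldoa, Fbp1 and Pygl passed in neither genotype, Pfkm, Pkm and Gbe1 fell past the threshold in Nos2-/- cells alone, and Ldhb rose past it in WT cells alone. For none of these last 4 genes did the responses of the 2 genotypes differ past the threshold. The 2 responses use different arrays, but each shares its stimulated and its untreated arrays with the comparisons between genotypes given further on.

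**Figure D1:**
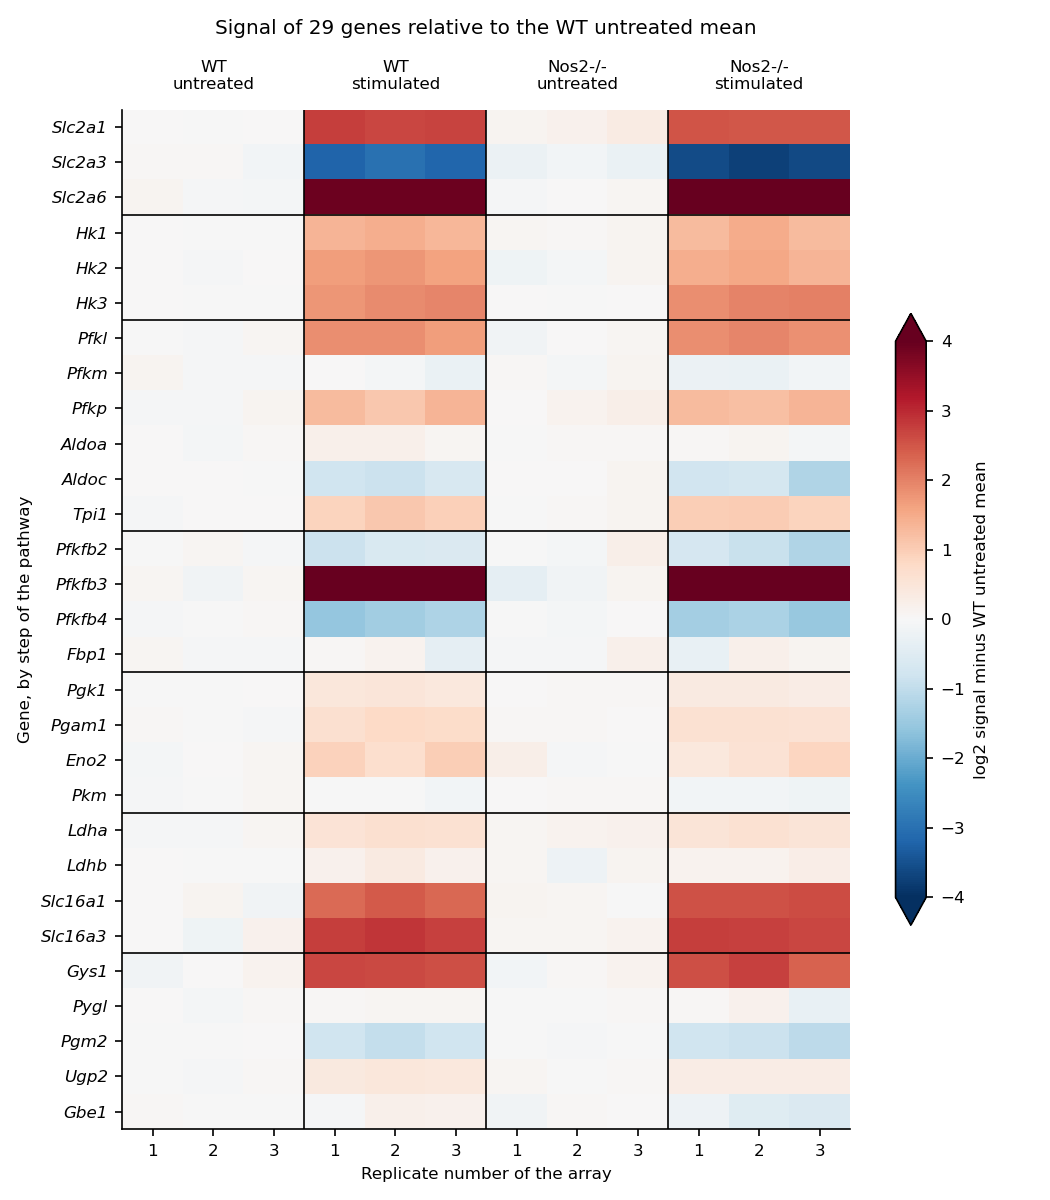
Log2 signal of the 29 genes (rows, in order of the pathway steps, separated by black lines) on each of the 12 arrays (columns, by group and replicate number), minus the mean of the 3 WT untreated arrays of that gene. Red is higher and blue lower, and the color scale ends at -4 and 4, beyond which Pfkfb3 lies at 5.76 in the WT mean. Untreated arrays of both genotypes are near 0 in all rows, and Pfkfb3, Slc2a6, Slc16a3, Slc2a1 and Gys1 are deep red and Slc2a3 deep blue on all 6 stimulated arrays.

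Many glycolytic genes are known targets of HIF1α, which binds the core letters ACGTG or GCGTG, so the RefSeq promoters of the set (mouse build GRCm38.p6, 250 bases before to 50 after each start) were searched for these letters on both strands. RefSeq promoters were at hand for 32 of the 33 genes, the exception being Slc2a3. ACGTG or GCGTG was found in 26 of these 32 genes (81.2%), against 59.3% of the 14452 genes on the arrays with a promoter and 46.7% of all 27025 genes with one. ACGTG alone was found in 59.4% of the 32 genes, against 26.1% of the genes on the arrays. Genes with several starts have more windows to search, and counted by promoter the share was 72.0% of 50 against 43.8% of 32851. Those 32851 are the promoters of all genes. The share by promoter was not computed for the genes on the arrays alone, which by gene hold the letters more often than all genes do. The letters were found in 14 of the 17 genes of the set that rose in both genotypes (82.4%) and in 4 of the 4 that fell in both and had a promoter, while over the arrays they were found in 70.9% of the genes that fell in both genotypes and in 60.9% of those that rose in both. The E-box CACGTG, which holds ACGTG on both strands and is counted there too, was found in 15.6% of the genes of the set and 10.2% of the genes on the arrays, and the kappaB motif in 12.5% and 11.7%. Counted by promoter, kappaB was found in 8.0% of the promoters of the set and 8.46% of all promoters. A match describes the letters and is not evidence of binding, and these arrays measured no binding.

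The promoters of 5 genes are printed 5′ to 3′ from RefSeq, because they belong to the most raised regulator of the pathway (Pfkfb3), to the genes of lactate production and export (Ldha, Slc16a1, Slc16a3) and, for contrast, to a PFKFB gene that fell (Pfkfb4). Capitals mark ACGTG or GCGTG on either strand, so that CACGT and CACGC are the same letters read from the other strand, and CACGTG is the match on both strands at once.
Pfkfb3, chr2:11502041-11502340, minus strand: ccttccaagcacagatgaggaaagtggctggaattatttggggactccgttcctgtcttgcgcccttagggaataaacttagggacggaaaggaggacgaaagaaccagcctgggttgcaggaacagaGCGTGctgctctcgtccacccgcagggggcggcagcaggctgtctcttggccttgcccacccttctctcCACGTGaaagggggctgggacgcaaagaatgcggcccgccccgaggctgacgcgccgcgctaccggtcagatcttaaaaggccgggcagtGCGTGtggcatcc
Ldha, chr7:46845554-46845853, plus strand: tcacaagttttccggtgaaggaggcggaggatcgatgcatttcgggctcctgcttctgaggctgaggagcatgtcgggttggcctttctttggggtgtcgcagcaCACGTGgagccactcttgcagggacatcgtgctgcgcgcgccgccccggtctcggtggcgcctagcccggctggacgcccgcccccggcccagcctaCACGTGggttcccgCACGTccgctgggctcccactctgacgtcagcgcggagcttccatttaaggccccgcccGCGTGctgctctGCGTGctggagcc
Slc16a1, chr3:104638414-104638713, plus strand: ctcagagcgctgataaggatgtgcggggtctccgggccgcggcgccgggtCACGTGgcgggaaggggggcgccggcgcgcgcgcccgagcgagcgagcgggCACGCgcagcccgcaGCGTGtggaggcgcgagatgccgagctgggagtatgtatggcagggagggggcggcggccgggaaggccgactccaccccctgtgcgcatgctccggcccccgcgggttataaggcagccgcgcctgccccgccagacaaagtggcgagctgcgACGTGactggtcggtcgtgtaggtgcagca
Slc16a3, chr11:120948817-120949116, plus strand: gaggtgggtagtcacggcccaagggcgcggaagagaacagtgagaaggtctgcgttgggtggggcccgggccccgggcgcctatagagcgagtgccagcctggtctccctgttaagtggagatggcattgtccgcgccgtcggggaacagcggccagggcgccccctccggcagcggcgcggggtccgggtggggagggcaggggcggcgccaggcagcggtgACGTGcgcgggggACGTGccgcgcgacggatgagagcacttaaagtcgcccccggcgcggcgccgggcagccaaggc
Pfkfb4, chr9:108991652-108991951, plus strand: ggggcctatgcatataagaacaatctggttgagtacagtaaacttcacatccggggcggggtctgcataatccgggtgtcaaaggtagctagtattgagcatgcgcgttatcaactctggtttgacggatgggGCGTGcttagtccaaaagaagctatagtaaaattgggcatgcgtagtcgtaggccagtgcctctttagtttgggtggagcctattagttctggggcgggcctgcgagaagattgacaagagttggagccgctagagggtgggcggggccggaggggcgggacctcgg
Counted on both strands, the first start of Ldha held 5 matches to ACGTG and 2 to GCGTG, and its pair of CACGTG sites accounts for 4 of the 5. The promoter of Slc16a1 held 3 and 2, the first start of Pfkfb3 held 2 and 2, and Slc16a3 held 2 and 0. Pfkfb4, whose signal fell, held a single GCGTG. The letters did not separate raised from lowered genes. Pfkfb2, which also fell, held 2 and 2 at its second start, the same counts as the first start of Pfkfb3. Gys1, Tpi1 and Eno2, which rose in both genotypes, held neither ACGTG nor GCGTG.

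The 3 hexose transporters changed strongly and in opposite directions. Slc2a1 encodes GLUT1, the main glucose transporter of macrophages. Its log2 signal was 9.91, 9.88 and 9.91 on the 3 WT untreated arrays and 12.65, 12.58 and 12.59 on the stimulated ones, and 10.00, 10.06 and 10.22 and 12.40, 12.38 and 12.38 in Nos2-/- cells. Every stimulated array was above every untreated array, with a log2 fold change of 2.71 ± 0.06 (SE, n = 3 per group) in WT (adjusted p = 3.6e-13, limma) and 2.29 ± 0.06 in Nos2-/- (adjusted p = 1.6e-12, limma). Slc2a6 encodes GLUT6, a hexose transporter of internal membranes. It went from 8.68, 8.52 and 8.50 to 12.50, 12.49 and 12.49 in WT and from 8.53, 8.58 and 8.66 to 12.59, 12.56 and 12.75 in Nos2-/-, a change of 3.93 and 4.04 on the log2 scale. Only 87 of the 18193 genes rose more than Slc2a6 in WT cells and 92 in Nos2-/- cells.

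Slc2a3 encodes GLUT3, a transporter with high affinity for glucose, and moved the other way. It measured 8.51, 8.50 and 8.36 on WT untreated arrays and 5.27, 5.47 and 5.29 after stimulation, and 8.22, 8.36 and 8.18 and 4.87, 4.72 and 4.84 in Nos2-/- cells. The fall was 8.65-fold in WT and 10.9-fold in Nos2-/- cells, and the stimulated and untreated arrays did not overlap in either genotype. Of its 4 probe sets, the 2 brightest gave -3.11 and -2.74 on the log2 scale in WT and -3.44 and -3.13 in Nos2-/-, the third gave -0.89 and -0.86, and the dimmest, at a mean log2 signal of 3.92, gave -0.06 and -0.05 and did not pass.

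All 3 hexokinases, which phosphorylate glucose in the first step after entry, rose in both genotypes. Hk2, a form that binds mitochondria and is induced in many activated cells, measured 9.35, 9.32 and 9.38 untreated and 11.02, 11.10 and 10.95 stimulated in WT, and 9.17, 9.26 and 9.45 and 10.79, 10.90 and 10.70 in Nos2-/-. Untreated and stimulated arrays were apart by more than 1 log2 unit in both genotypes, with fold changes of 3.19 and 2.83. Hk3 rose by 1.86 and 1.95 and Hk1 by 1.38 and 1.27 on the log2 scale in WT and Nos2-/- respectively, with SEs of 0.07.

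From glucose 6-phosphate to the triose phosphates, 3 of the 6 measured genes rose in each genotype. Pfkl and Pfkp, the liver and platelet forms of phosphofructokinase, rose, whereas Pfkm, the muscle form, did not. Pfkl measured 9.21, 9.18 and 9.30 and 11.09, 11.08 and 10.90 in WT untreated and stimulated cells and 9.10, 9.25 and 9.30 and 11.07, 11.19 and 11.04 in Nos2-/-, a log2 change of 1.80 and 1.88. Pfkp changed by 1.24 and 1.14. Pfkm measured 7.40, 7.24 and 7.26 and 7.30, 7.22 and 7.05 in WT, where the groups overlapped (-0.11, adjusted p = 0.278, limma), and 7.34, 7.21 and 7.42 and 7.07, 7.02 and 7.20 in Nos2-/-, where they did not (-0.23, adjusted p = 0.0346). The call in Nos2-/- cells was lost without untreated replicate 1 or 3 and without stimulated replicate 1 or 2 of that genotype, with adjusted p between 0.0785 and 0.13, and without moderation of the variance (0.0534). After quantile normalization the change of Pfkm in Nos2-/- cells was -0.03 (adjusted p = 0.807).

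The aldolases, which split fructose 1,6-bisphosphate, did not move together. Aldoa, the muscle and ubiquitous form, measured 13.23, 13.14 and 13.27 untreated and 13.40, 13.40 and 13.30 stimulated in WT, a difference of 0.16 that missed the threshold (adjusted p = 0.0541, limma) and passed under 8 of 24 alternatives, at 0.15 to 0.20. In Nos2-/- cells it changed by 0.00. Aldoc, the brain form, measured 9.02, 9.03 and 9.00 and 8.23, 8.17 and 8.38 in WT and 9.05, 9.04 and 9.12 and 8.26, 8.32 and 7.83 in Nos2-/-. It fell by 0.76 and 0.94 on the log2 scale, and no stimulated array reached the lowest untreated array. Aldoc lies 17 gene positions from Nos2 on chromosome 11 and did not differ between genotypes past the threshold in either condition. Tpi1, which interconverts the triose phosphates, rose by 0.96 in WT and 0.91 in Nos2-/- cells.

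The enzymes that set the level of fructose 2,6-bisphosphate held the largest rise of the set and 2 of its falls. Pfkfb3, whose kinase activity far exceeds its phosphatase activity, measured 6.42, 6.20 and 6.42 on WT untreated arrays and 12.17, 12.14 and 12.01 after stimulation, and 5.99, 6.22 and 6.46 and 12.12, 12.17 and 12.12 in Nos2-/- cells. This was a 54.3-fold rise in WT (log2 5.76 ± 0.10, adjusted p = 3.4e-14, limma) and a 60.2-fold rise in Nos2-/- (5.91, adjusted p = 2.3e-14). Only 28 of all 18193 genes rose more in WT and 24 in Nos2-/-. Its promoter, printed above, carries CACGTG and further GCGTG letters. The dimmer of its 2 probe sets rose by 4.70 and 4.56.

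Pfkfb4 and Pfkfb2, isozymes of the same family, fell. Pfkfb4 measured 9.21, 9.24 and 9.32 and 7.73, 7.88 and 8.03 in WT and 9.25, 9.17 and 9.27 and 7.90, 7.98 and 7.76 in Nos2-/-, a log2 change of -1.38 and -1.35. Pfkfb2 measured 6.21, 6.30 and 6.17 and 5.37, 5.61 and 5.65 in WT and 6.22, 6.16 and 6.45 and 5.55, 5.33 and 5.02 in Nos2-/-, a change of -0.68 and -0.98 with no overlap between untreated and stimulated arrays. Pfkfb2 was dim, with a mean log2 signal of 5.84 at the 46.6 percentile of all genes. Of its 4 probe sets, 2 fell past the threshold in each genotype and 2 did not pass in either. Fbp1, the gluconeogenic phosphatase that reverses the phosphofructokinase step, was near the bottom of the signal range, from 3.60 to 4.15 over all 12 arrays, and gave -0.05 and -0.03.

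Between the triose phosphates and pyruvate the changes were small next to those of the transporters and Pfkfb3, and 3 of the 4 measured genes rose in each genotype. The mean signals of Pgk1, Pgam1 and Pkm lay at the 99.7, 99.2 and 99.5 percentiles of all genes, and the highest signal on an array was 14.7. The part of signal level in the size of these changes was not tested. Pgk1, phosphoglycerate kinase, measured 13.18, 13.19 and 13.23 untreated and 13.64, 13.67 and 13.63 stimulated in WT and 13.21, 13.24 and 13.25 and 13.57, 13.55 and 13.50 in Nos2-/-. The arrays of the 2 conditions were fully apart, and the log2 change was 0.45 ± 0.05 in WT and 0.31 ± 0.05 in Nos2-/-. Pgam1, phosphoglycerate mutase, rose by 0.72 and 0.57, and Eno2, the neuronal enolase, rose by 0.85 and 0.56. Eno2 was dim, with a mean log2 signal of 5.81 at the 46.2 percentile of all genes, and Eno1 was not analysed.

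Pkm, which makes pyruvate, measured 13.14, 13.19 and 13.27 and 13.19, 13.20 and 13.08 in WT, where the conditions overlapped (-0.04, adjusted p = 0.571, limma). In Nos2-/- cells it measured 13.20, 13.25 and 13.26 and 13.10, 13.10 and 13.02, with a small fall of 0.16 that passed (adjusted p = 0.0415, limma). That call was lost when any of the 6 Nos2-/- arrays or WT untreated replicate 2 was left out (adjusted p between 0.0527 and 0.113). Whether the probe set separates the 2 spliced forms of Pkm was not determined.

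Gapdh, the enzyme between Tpi1 and Pgk1, was higher after stimulation on its 3 control probe sets by 0.20, 0.27 and 0.17 in WT and by 0.19, 0.21 and 0.18 in Nos2-/- on the log2 scale, for the 3′, middle and 5′ sets in turn. The 3′ control set measured 13.53, 13.54 and 13.58 on the WT untreated arrays and 13.78, 13.77 and 13.70 on the stimulated ones. In Nos2-/- cells it measured 13.52, 13.55 and 13.58 and then 13.76, 13.83 and 13.64. The untreated and stimulated arrays did not overlap in either genotype, and stimulated Nos2-/- minus stimulated WT was between -0.04 and -0.01 on the 3 sets. With these control probe sets admitted to the test as an added setting, Gapdh made the counts 19 higher and 5 lower of 30 genes in WT and 18 and 8 in Nos2-/-.

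The 4 lactate genes rose in WT cells, and 3 of them rose in Nos2-/- cells. Slc16a1, which encodes the lactate and pyruvate carrier MCT1, measured 9.53, 9.64 and 9.37 untreated and 11.78, 11.97 and 11.79 stimulated in WT, and 9.62, 9.58 and 9.50 and 12.05, 12.07 and 12.12 in Nos2-/-. Slc16a3, which encodes MCT4, the carrier used for lactate export by highly glycolytic cells, measured 6.41, 6.21 and 6.56 and 9.15, 9.26 and 9.13 in WT and 6.48, 6.46 and 6.52 and 9.15, 9.14 and 9.08 in Nos2-/-. For both carriers each stimulated array was more than 2 log2 units above every untreated array of its genotype. The log2 change of Slc16a1 was 2.34 in WT and 2.52 in Nos2-/-, and that of Slc16a3 was 2.79 and 2.64, with SEs of 0.08.

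Ldha, the lactate dehydrogenase subunit that favors the making of lactate, measured 12.74, 12.72 and 12.86 and 13.32, 13.42 and 13.37 in WT and 12.84, 12.90 and 12.93 and 13.30, 13.39 and 13.28 in Nos2-/-. It rose by 0.60 in WT (adjusted p = 1.7e-06, limma) and 0.43 in Nos2-/- (adjusted p = 4.7e-05, limma), with no overlap of untreated and stimulated arrays. Ldhb, the subunit more common in oxidative tissues, measured 7.12, 7.10 and 7.09 and 7.28, 7.47 and 7.26 in WT and 7.17, 6.91 and 7.22 and 7.24, 7.24 and 7.37 in Nos2-/-. The change of Ldhb was 0.24 in WT (adjusted p = 0.0316, limma) and 0.18 in Nos2-/- (adjusted p = 0.0878, limma), and the difference between them was -0.05 (adjusted p = 0.924). The WT call of Ldhb was lost without any of the 3 untreated arrays or stimulated replicate 2 of that genotype (adjusted p between 0.058 and 0.137), with arrays centered on their medians (0.0874) and without moderation (0.0531). In Nos2-/- cells the change of Ldhb passed at 0.38 after quantile normalization, 0.37 as the mean of its probe sets, 0.65 with its most variable probe set and 0.24 without untreated replicate 3 (adjusted p between 0.00194 and 0.045, limma).

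In the glycogen step, the synthase Gys1 rose strongly, and the phosphorylase Pygl did not pass the threshold in either genotype. Gys1, glycogen synthase, measured 7.05, 7.18 and 7.31 on WT untreated arrays and 9.85, 9.83 and 9.76 after stimulation, and 7.08, 7.23 and 7.31 and 9.77, 9.92 and 9.54 in Nos2-/- cells. The rise was 2.63 ± 0.10 in WT (adjusted p = 3.5e-11, limma) and 2.54 ± 0.10 in Nos2-/- (adjusted p = 4.5e-11, limma), and its other probe set gave 2.66 and 2.48. Ugp2, which makes UDP-glucose, rose by 0.42 and 0.27. Pgm2, a phosphoglucomutase, fell by 0.85 and 0.88 on the log2 scale. Pgm1, the main phosphoglucomutase, which is outside the set and described further on, rose. Its mean log2 signal went from 7.99 to 10.62 in WT and from 8.06 to 10.56 in Nos2-/-. Pygl, the liver phosphorylase, which releases glucose 1-phosphate, measured 9.51, 9.43 and 9.54 and 9.55, 9.56 and 9.59 in WT and 9.48, 9.47 and 9.53 and 9.53, 9.67 and 9.20 in Nos2-/-. The WT conditions lay apart by a narrow margin and the Nos2-/- conditions overlapped, with changes of 0.07 (adjusted p = 0.526) and -0.03 (adjusted p = 0.826, limma). Of the other phosphorylases, outside the set, named after their values were seen, Pygb, the brain form, fell by 0.80 in WT (adjusted p = 3.4e-07, limma) and by 0.68 in Nos2-/- (1.6e-06). Pygm, the muscle form, rose by 0.28 (adjusted p = 0.0452, limma) and by 0.31 (0.0289), with overlapping arrays in Nos2-/-. The signal of Pygm was near the bottom of the range, with a mean of 3.57 at the 9.6 percentile of all genes. Whether Pygm is expressed in these cells was not determined.

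Gbe1, the glycogen branching enzyme, measured 7.87, 7.81 and 7.80 untreated and 7.77, 8.01 and 8.00 stimulated in WT cells, with overlap and a change of 0.10 (adjusted p = 0.393, limma), which was 0.30 and passed after quantile normalization (adjusted p = 0.00617). In Nos2-/- cells it measured 7.67, 7.88 and 7.85 and then 7.63, 7.35 and 7.26, and all stimulated arrays were below all untreated arrays. The Nos2-/- change was -0.39 ± 0.10 (adjusted p = 0.00412, limma).

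**Figure D2:**
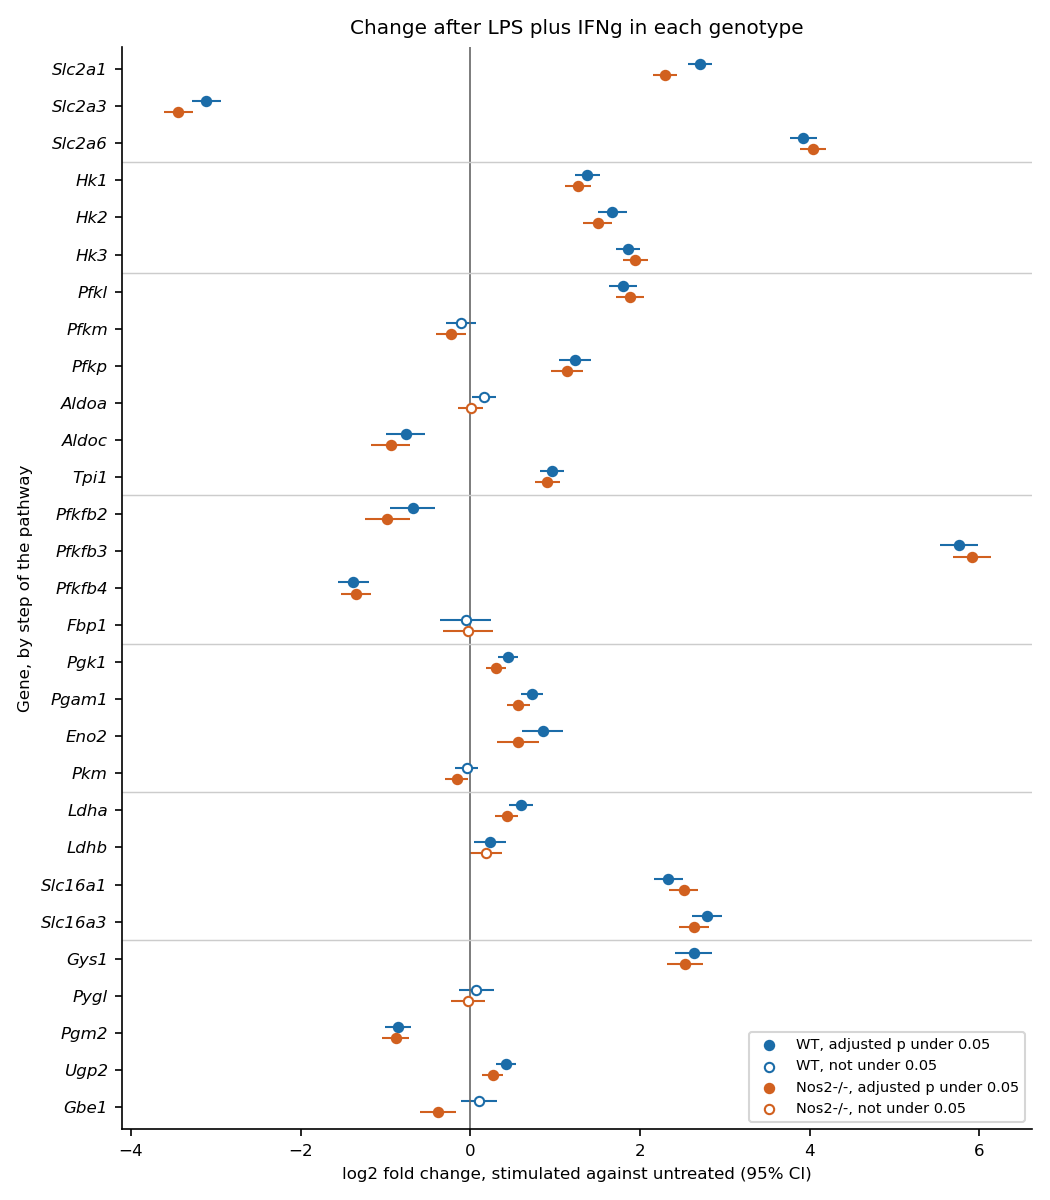
Log2 fold change of stimulated against untreated cells for each of the 29 genes (rows, by step of the pathway), in WT (blue) and Nos2-/- (orange). Points are estimates from 3 arrays per group, lines are 95% confidence intervals, and filled points have an adjusted p under 0.05. Pfkfb3 lies farthest right (5.76 and 5.91) and Slc2a3 farthest left (-3.11 and -3.44), and the intervals of the 2 genotypes overlap in most rows.

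Where a gene had several probe sets, they did not give opposite calls. The 29 genes had 62 probe sets, and 16 genes had more than 1. In a fit over all probe sets, 39 of the 62 were called higher and 9 lower in WT cells, and 37 higher and 11 lower in Nos2-/- cells. The size of the change depended on the probe set for some genes: the 2 probe sets of Slc16a1 gave 2.34 and 0.54 in WT, the 3 of Pfkp gave 1.24, 1.47 and 0.33, and the 3 of Pfkl gave 1.80, 1.79 and 1.05. The 4 probe sets of Ldhb all gave a positive change in both genotypes, between 0.16 and 0.65, and 2 passed in each.

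**Figure D3:**
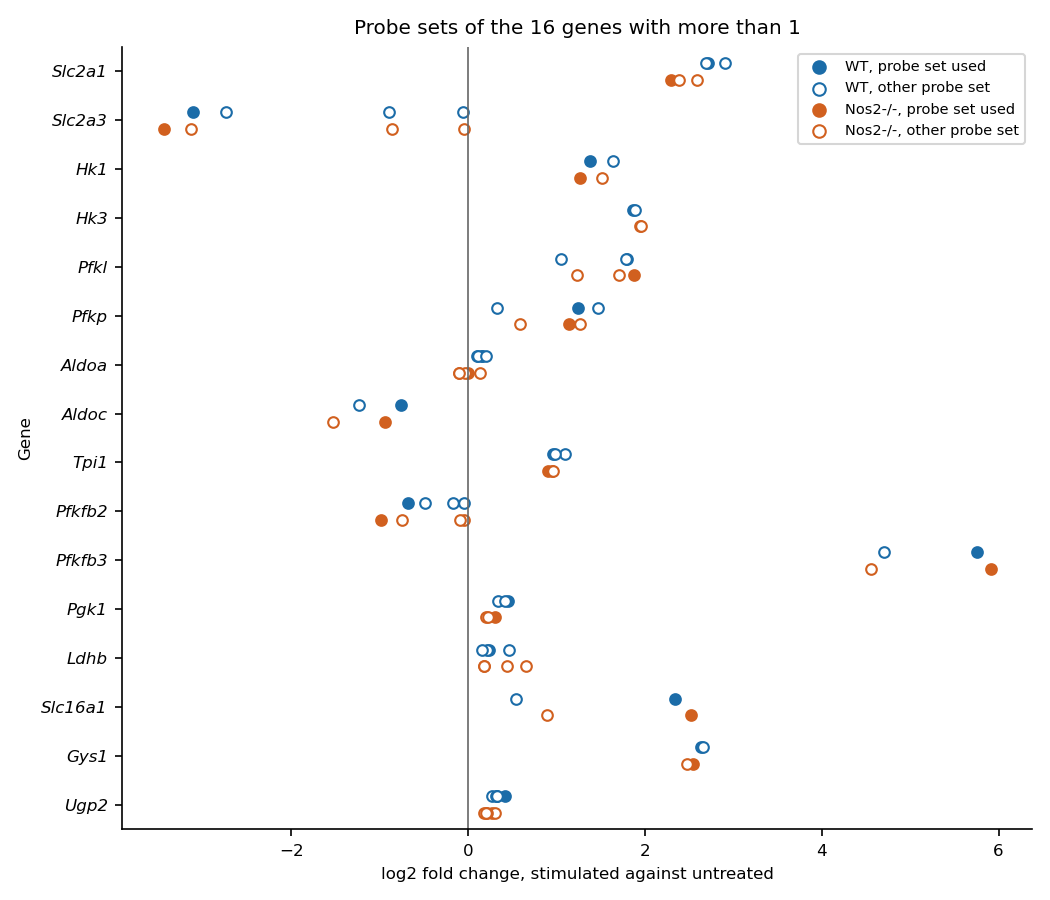
Log2 fold change of stimulated against untreated cells for every probe set of the 16 genes with more than 1 (rows), in WT (blue) and Nos2-/- (orange). Filled points are the probe set with the highest mean signal, used in the text, and open points are the others. Probe sets of a gene lie on the same side of 0 or near it, and those of Slc2a3, Pfkfb2 and Slc16a1 are spread widely, from -3.11 to -0.06 for Slc2a3 in WT.

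A wider list of 57 genes of the same pathways was tested beside the set, and 53 of them were measured. This list was written by function, with earlier results of these data known. Stimulation raised 14 of the 53 (26.4%) and lowered 18 (34.0%) in WT cells, and raised 13 (24.5%) and lowered 20 (37.7%) in Nos2-/- cells. Over all genes 29.6% were raised and 28.4% lowered in WT and 26.3% and 28.2% in Nos2-/-. The 6 largest changes past the threshold were in the same genes in both genotypes, given here as log2 changes in WT and then Nos2-/-. Pgm1, the main phosphoglucomutase, rose by 2.63 and 2.50, and Ppp1r3b, which brings protein phosphatase 1 to glycogen, rose by 1.84 and 1.77. Pgm2l1, a relative of Pgm2 that makes glucose 1,6-bisphosphate, changed by -3.88 and -3.94. Slc37a2, a sugar phosphate exchanger of the endoplasmic reticulum, changed by -3.31 and -3.65. Slc16a7, which encodes the carrier MCT2, changed by -3.18 and -3.02, and Phka2, a subunit of phosphorylase kinase, by -2.17 and -2.25.

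Differences between the genotypes were small next to the changes after stimulation. Between stimulated Nos2-/- and stimulated WT cells 0 of the 29 were higher and 2 were lower, Slc2a3 and Gbe1, where 1.03% of all genes were higher and 1.91% lower. At an unadjusted p under 0.05 the counts were 1 and 5, where 6.72% of all genes were higher and 8.34% lower. The stimulated arrays of the genotypes did not overlap for 9 of the 29, and for 17.1% of all genes. Differences ran from -0.53 to 0.23 on the log2 scale with a median of -0.07, where the median of all genes was -0.01, and 9 of the 29 were above 0, where 47.9% of all genes were.

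Stimulated Slc2a3 arrays were all lower in Nos2-/- cells, at 4.87, 4.72 and 4.84, than in WT cells, at 5.27, 5.47 and 5.29. These are modest signals, as the median of all probe sets on an array was 5.14 to 5.21. The difference was -0.53 ± 0.08 (95% CI -0.70 to -0.36, adjusted p = 0.00159, limma). Its other bright probe set gave -0.61 and passed, while the 2 dim ones gave -0.07 and -0.12 and did not. Both bright probe sets carry suffixes that mark probes shared with other transcripts, and with such probe sets left out the value was -0.07 (adjusted p = 0.878). Untreated, Slc2a3 already differed by -0.20 (unadjusted p = 0.0229, adjusted p = 1), and the difference between the responses was -0.33 (adjusted p = 0.275, limma).

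Gbe1 measured 7.77, 8.01 and 8.00 on the stimulated WT arrays and 7.63, 7.35 and 7.26 on the stimulated Nos2-/- arrays, again without overlap. The difference was -0.51 ± 0.10 (95% CI -0.72 to -0.30, adjusted p = 0.0104, limma), from a single probe set. It missed the threshold without WT stimulated replicate 2 (-0.47, adjusted p = 0.0522) and without Nos2-/- stimulated replicate 3 (-0.43, adjusted p = 0.0512), and when the untreated arrays were kept out of the model (adjusted p = 0.0752). Neither Slc2a3 nor Gbe1 reached a 1.5-fold difference between the stimulated genotypes.

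Another 4 genes had stimulated arrays that did not overlap between genotypes and intervals that left out 0, without passing the adjusted test. Slc2a1 was -0.22 (95% CI -0.36 to -0.08, adjusted p = 0.101, limma), and it passed with an intensity trend in the variance (0.0167) and with genes below the median signal left out (0.0339). The other probe sets of Slc2a1 gave -0.16 and -0.19 and did not pass (adjusted p = 0.282 and 0.301, limma over all probe sets). Hk2 was -0.23 (95% CI -0.40 to -0.05, adjusted p = 0.182), and Slc16a1 was 0.23 (95% CI 0.06 to 0.40, adjusted p = 0.161). Ugp2 was -0.12 (95% CI from -0.24 to just below 0, adjusted p = 0.332, limma). Slc2a6, with stimulated arrays that did not overlap, was 0.14 (95% CI -0.02 to 0.29). Among the other genes that rose most, Pfkfb3 was 0.03 (95% CI -0.20 to 0.25), Slc16a3 was -0.06 (95% CI -0.23 to 0.12) and Gys1 was -0.07 (95% CI -0.28 to 0.15).

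**Figure D4:**
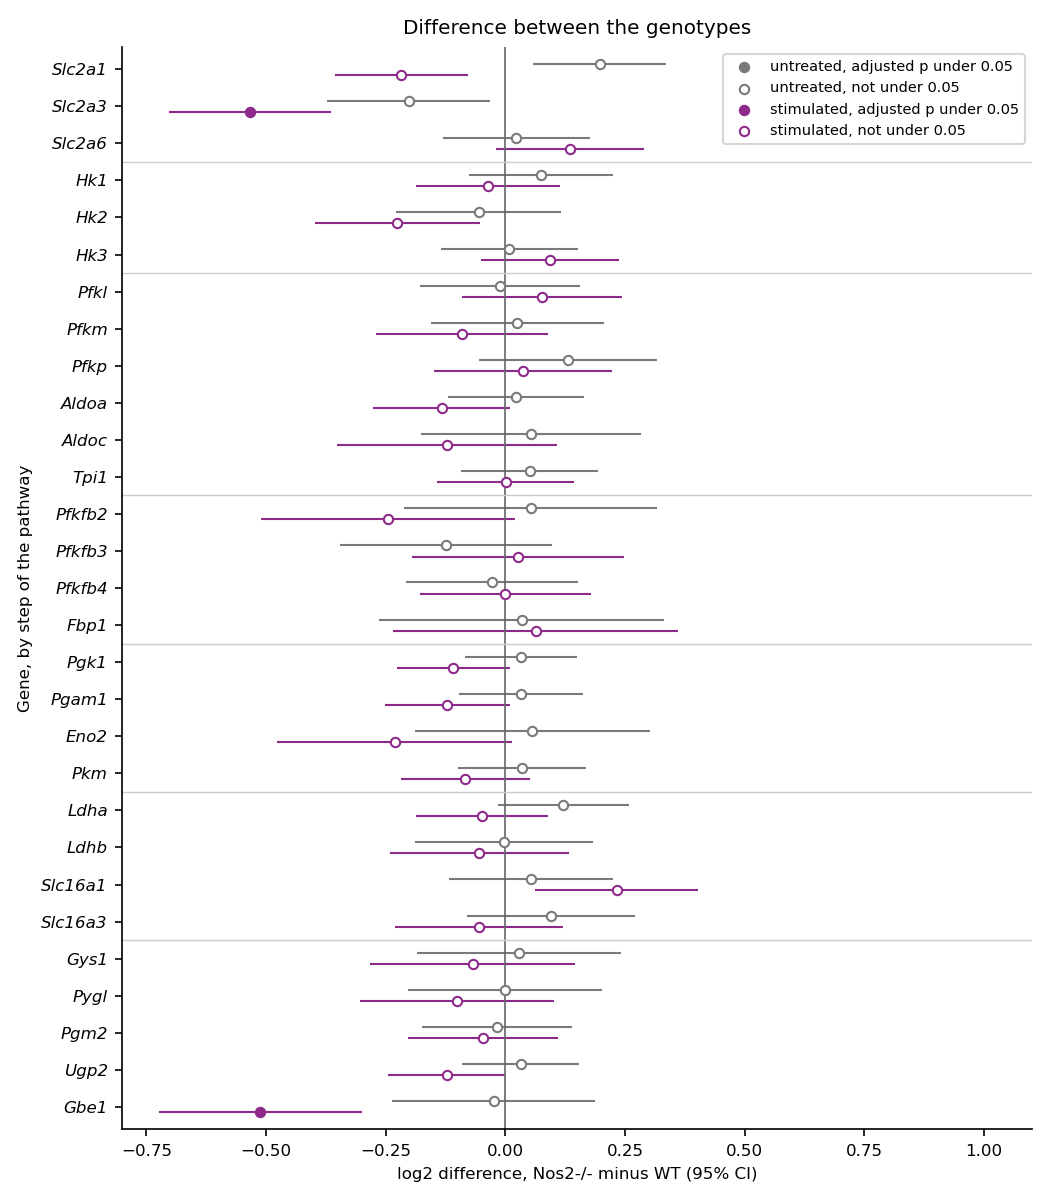
Log2 difference of Nos2-/- minus WT for each of the 29 genes (rows, by step of the pathway), in untreated cells (grey) and stimulated cells (purple). Points are estimates from 3 arrays per group, lines are 95% confidence intervals, and filled points have an adjusted p under 0.05. Slc2a3 (-0.53) and Gbe1 (-0.51) are the only filled points, both in stimulated cells, and the purple points of Slc2a1 and its grey point lie on opposite sides of 0.

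Untreated Nos2-/- and WT cells differed in none of the 29 genes past the threshold, 0 higher and 0 lower, where 0.0055% of all genes were higher and 0.0055% lower. At an unadjusted p under 0.05, limma gave 1 higher and 1 lower, Slc2a1 and Slc2a3, where 1.95% of all genes were higher and 2.05% lower. Differences ran from -0.20 to 0.20 with a median of 0.03. Untreated Slc2a1 was 0.20 ± 0.06 higher in Nos2-/- (unadjusted p = 0.0089, adjusted p = 1), with each Nos2-/- array above each WT array.

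The test of whether the response itself differed between genotypes passed for none of the 29, 0 higher and 0 lower, against 0.302% and 0.676% of all genes. At an unadjusted p under 0.05, limma gave 0 higher and 3 lower, Slc2a1, Slc2a3 and Gbe1, where 4.77% of all genes were higher and 5.26% lower. The response was larger in Nos2-/- than in WT, in the signed sense, for 7 of the 29 genes, where it was for 46.8% of all genes, and the median difference was -0.12 against -0.01. Slc2a1 came closest, with a response smaller in Nos2-/- by 0.41 (-0.41 ± 0.09, 95% CI -0.61 to -0.22, adjusted p = 0.0501, limma), made up of a higher untreated and a lower stimulated signal. It passed with an intensity trend in the variance (adjusted p = 0.00331), after quantile normalization (0.0265) and with genes below the median signal left out (0.0154). The other probe sets of Slc2a1 gave smaller differences of -0.30 and -0.32 that did not pass (adjusted p = 0.232 and 0.327, limma over all probe sets). For Gbe1 the difference was -0.49 (adjusted p = 0.163, limma), which passed without Nos2-/- stimulated replicate 1 (-0.60, adjusted p = 0.042).

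Among the 53 other genes of the pathways, Txnip and Slc37a2 passed between the stimulated genotypes, 1 higher and 1 lower. Txnip binds thioredoxin and promotes the removal of GLUT1 from the cell surface. It measured 12.11, 12.10 and 12.17 untreated and 10.89, 10.96 and 10.73 stimulated in WT, and 12.08, 12.13 and 12.12 and 11.63, 11.61 and 11.65 in Nos2-/-. Untreated arrays of the genotypes overlapped, while every stimulated Nos2-/- array was above every stimulated WT array, by 0.77 ± 0.07 on the mean (adjusted p = 1.7e-05, limma). Txnip fell in both genotypes, by 1.27 in WT and by 0.48 in Nos2-/-, and the difference of 0.78 ± 0.09 passed (adjusted p = 6.1e-04, limma). It was the only gene of the 53 to do so, and none of the 29 genes of the set did. Stimulated Slc37a2 measured 8.43, 8.56 and 8.47 in WT and 8.14, 8.20 and 7.99 in Nos2-/- cells, a difference of -0.37 (adjusted p = 0.0254, limma). That call was lost without WT stimulated replicate 2 or 3 or Nos2-/- stimulated replicate 1 or 3 (adjusted p between 0.0508 and 0.105).

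**Figure D5:**
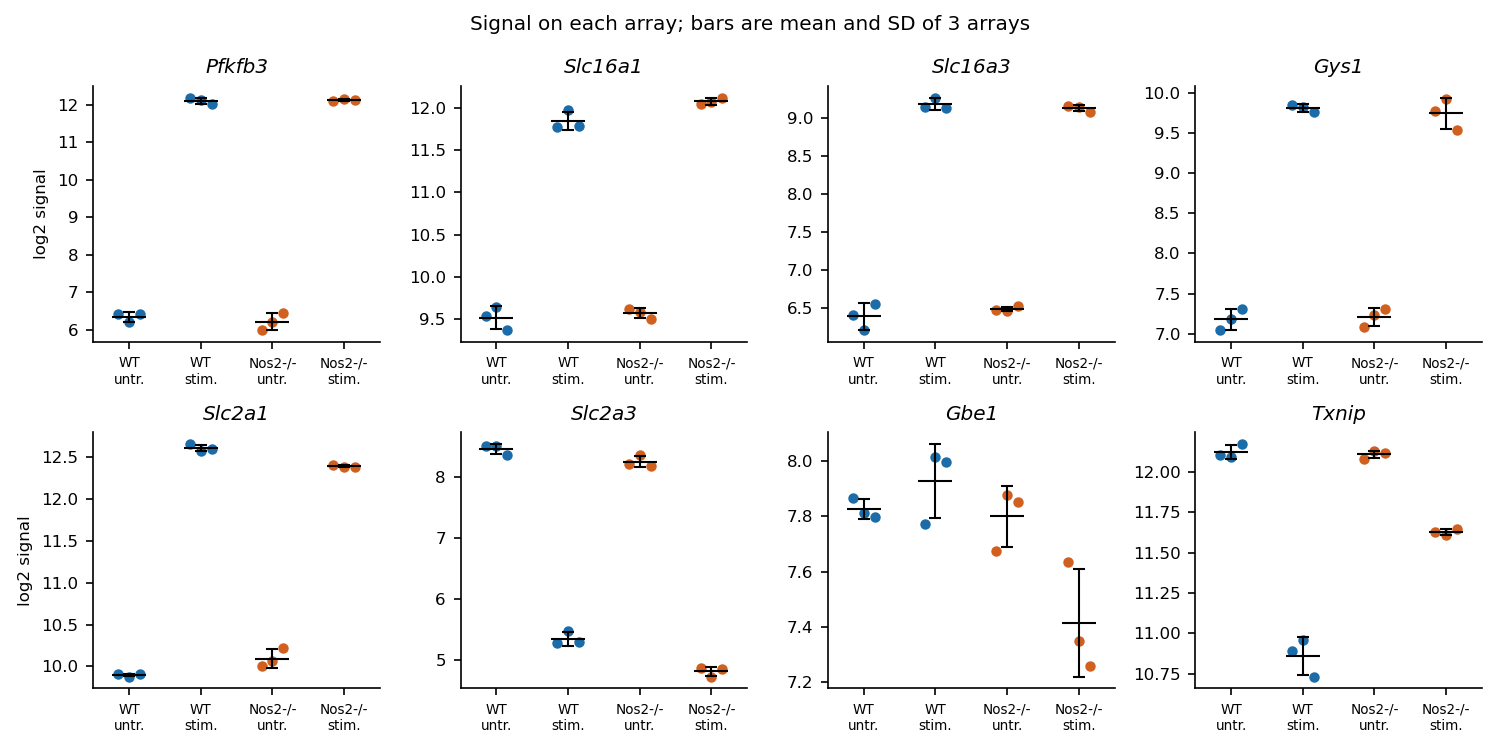
Log2 signal of 8 genes on each of the 12 arrays (points), in WT (blue) and Nos2-/- (orange) cells, untreated (untr.) and stimulated (stim.), with the mean and SD of the 3 arrays in black, and with an axis range of its own for each gene. Pfkfb3, Slc16a1, Slc16a3 and Gys1 rise in both genotypes, stimulated Slc2a3 and Gbe1 are lower in Nos2-/-, and stimulated Txnip sits between 10.73 and 10.96 in WT and between 11.61 and 11.65 in Nos2-/-.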

How the data were processed

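RNA from 12 BMDM samples was hybridised to Affymetrix Mouse Genome arrays. The authors processed the scans in Partek Genomics Suite with RMA and deposited log2 signal values, 1 table with 45101 probe sets. RMA brings the arrays toward a shared distribution, so a change shared by most genes would not be seen, and a few arrays per group limit the precision. The deposited values were not identical in distribution, with array medians from 5.14 to 5.21. Quantile normalization of these values moved some small changes, as given above for Pfkm, Ldhb and Gbe1. Software versions and background settings were not given in the sources used here. Of the probe sets, 64 controls were left out, 34945 named 1 gene through the platform annotation, 932 named several and 9160 none. Where several probe sets named a gene, the brightest on average was kept, which gave 18193 genes.

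The groups came from the labels. All 4 groups entered 1 linear model (limma 3.58.1 in R 4.3.3) with empirical Bayes moderation and 5 contrasts, adjusted by Benjamini-Hochberg over all genes. A gene was called at an adjusted p under 0.05. A 1.5-fold threshold with an FDR of 0.5, as the methods print it after their analysis of variance, was run as an alternative. The procedure was tested on simulated data. Every gene of the set is named, and of the wider list the 6 largest called changes per response and every gene called between stimulated genotypes or for the difference between responses. The genes and lists were chosen with earlier results of these data known. Alternatives covered the model, the normalization, the threshold, a filter on dim genes, the choice of probe set, the replicate number as a block and leaving out each array. The kappaB motif was searched by its usual consensus. Figures were drawn with matplotlib 3.10.9.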

Additional observations from a re-analysis of the deposited data

Results flagged for a closer look

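Txnip, a gene of the wider pathway list and not of the set of 33, responded differently in the 2 genotypes. Its response in Nos2-/- cells minus its response in WT cells was 0.78 on the log2 scale (adjusted p = 6.1e-04, limma, 3 arrays per group), with falls of 0.48 in Nos2-/- and 1.27 in WT. All 3 stimulated Nos2-/- arrays were above all 3 stimulated WT arrays.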

How the results depend on the processing

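Over the 25 alternatives (24 for the difference between the responses), no change of a single gene reversed its direction while called, 64 gene results fell below the threshold, 20 passed it and 3740 stayed on their side. The counts of changed genes after stimulation moved by less than 1.5 times under every alternative. With the 1.5-fold threshold, at an adjusted p under either 0.5 or 0.05, the WT calls of Pgk1, Ldhb and Ugp2 were lost. The Nos2-/- calls of Pfkm, Pgk1, Pgam1, Eno2, Pkm, Ldha, Ugp2 and Gbe1 were lost there too, so the loss was larger in Nos2-/- cells. Leaving out each array in turn gave 22 to 24 changed genes in WT, 23 to 25 in Nos2-/-, 1 to 2 between the stimulated genotypes, 0 to 0 between the untreated ones and 0 to 1 for the difference between the responses. Between the stimulated genotypes the count of 2 became 1 with only the arrays compared in the model and 1 without shared-probe sets (_s_at and _x_at), and 0 under a 1.5-fold threshold with an adjusted p under either 0.5 or 0.05. It became 3 with an intensity trend and 3 without genes below the median signal, each time by adding Slc2a1, and without moderation Pgk1 passed (adjusted p = 0.0384) and Gbe1 did not (0.0526). For the difference between the responses the count of 0 became 1 with an intensity trend, 1 after quantile normalization and 1 without genes below the median signal, each time Slc2a1. The cause of these shifts was not tested, apart from the stricter threshold itself. With the replicate number as a block the counts were 23, 24, 2, 0 and 0, and the block removed only the Nos2-/- call of Pkm (adjusted p = 0.0586) among single calls of the set. Deviations of same-numbered arrays from their group means correlated at r from -0.26 to 0.21 (18 pairs). Between the untreated genotypes the same-numbered pairs gave 0.11, 0.03 and 0.21, and differently numbered pairs ran from -0.16 to 0.08. Between the stimulated genotypes the same-numbered pairs gave -0.26, 0.07 and -0.10. Deviations from a mean of 3 arrays are tied to each other, so these values cannot decide whether the numbers pair the samples. Keeping the single-gene control probe sets, an alternative chosen after seeing the data, added Gapdh to both responses. Fbp1, with signals from 3.60 to 4.15, lies near the lowest values on the arrays (2.13 to 2.34), and a change in it may not have been detectable.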
